A study of Bos taurus with 20 samples.

Results

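Tubulin transcripts named on 2 bovine endometrial cDNA arrays are described here. Every clone that the arrays' gene table assigns to TUBB4B, TUBB, TUBB6 or TUBA1A, and to no other gene, was taken: 7 of the 3072 clones, standing for 4 genes. The 18KB array holds 2 clones of TUBB4B, and the 18KO array holds 3 of TUBB, 1 of TUBB6 and 1 of TUBA1A. The genes were chosen by their log2 signal in these same pregnant and control heifers, where it was lower in pregnancy, so their difference between pregnant and control heifers is given as a description, with no test.

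Endometrium of 4 pregnant Simmental heifers aged 17 to 20 months was compared with that of 6 control heifers aged 18 to 22 months, all on day 18 of pregnancy or of the cycle. Every heifer was synchronised with cloprostenol; pregnant heifers were inseminated with sperm and controls with the sperm-free supernatant from the same bull, and each pregnant uterus held a conceptus, which was removed. RNA came from intercaruncular endometrium of the caudal part of the ipsilateral horn, a bulk tissue in which fewer cells of a type and less RNA per cell cannot be told apart. Radioactive cDNA probes made from each RNA were hybridised to both arrays, of 1536 clones each: 18KB from a subtracted library enriched for transcripts of pregnant heifers and 18KO from one enriched for transcripts of controls. The 18KO array of pregnant 316 was hybridised later than the others.

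Alpha- and beta-tubulin proteins pair into the dimers that build microtubules, the hollow filaments that carry vesicles, shape cells, separate chromosomes and form the core of cilia. Mammals have several genes for each, whose proteins are much alike and differ most in their acidic C-terminal tails. In cultured mammalian cells, a surplus of free dimers triggers the decay of tubulin mRNAs during their translation. The bovine RefSeq annotation (assembly ARS-UCD2.0) lists 20 tubulin genes. TUBA1A lies there next to TUBA1C and is separated from TUBA1B by a single protein-coding locus. Spotted cDNA of 1 tubulin gene may also bind transcripts of its relatives; this was not tested, since no clone sequences were used here.

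TUBB4B, a beta-tubulin found in many tissues and in the axonemes of cilia, was the one tubulin named on the 18KB array. Clone 18KB-15-A12 had intensities of 5.74, 8.83, 9.48 and 7.69 in pregnant heifers 316, 426, 447 and 448, against 12.47 to 19.93 in the 6 controls (median 16.0). Clone 18KB-18-H09 had 8.34, 12.11, 13.26 and 12.57 in the same pregnant heifers, against 22.15 to 36.64 in controls (median 28.9). In both clones every pregnant heifer lay below every control, and pregnant 316 was the lowest of all 10. The geometric mean of the gene was 9.42 in pregnant heifers and 21.1 in controls, a log2 fold change of -1.16 ± 0.24 (SE), or 2.23-fold lower. The brighter clone showed the larger difference (-1.32 ± 0.21, against -1.003 ± 0.20 for the other).

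TUBB, the beta-tubulin that most dividing and non-dividing cells express, was represented by 3 clones of the 18KO array. In pregnant heifers 316, 426, 447 and 448, clone 18KO-09-F07 had 7.42, 4.28, 6.10 and 4.98, against 9.22 to 23.88 in controls (median 14.4). Clone 18KO-11-A05 had 5.82, 6.27, 7.34 and 8.05 in pregnant heifers, against 14.76 to 49.45 in controls (median 17.9). Clone 18KO-16-B02 had 8.14, 7.82, 9.22 and 5.69 in pregnant heifers, against 16.14 to 33.06 in controls (median 19.2). The groups did not overlap in any of the 3 clones, and control 449 was the brightest heifer in each. Averaged over its clones, TUBB had a geometric mean of 6.61 in pregnant heifers and 18.4 in controls (log2 fold change -1.47 ± 0.35, 2.78-fold lower). Its clones gave -1.43, -1.58 and -1.42, with standard errors of 0.26 to 0.33. The clones were measured in the same heifers, so these errors do not measure the spread between clones. Within a heifer the brightest TUBB clone exceeded the dimmest by 1.40 to 1.83 times in pregnant heifers and by 1.22 to 2.07 times in controls.

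TUBB6, a beta-tubulin that departs most in sequence from the other widely expressed ones and is known in mice for a part in muscle regeneration, had 1 clone, 18KO-04-E05. Its intensities were 2.88, 4.28, 4.32 and 5.07 in pregnant heifers 316, 426, 447 and 448, against 7.07 to 21.92 in controls (median 10.8). Pregnant 316 was again the lowest heifer and control 449 the highest, with no overlap between groups. The log2 fold change was -1.54 ± 0.38, or 2.91-fold lower.

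TUBA1A, an alpha-tubulin abundant in developing neurons whose mutation disturbs brain folding in humans, had 1 clone, 18KO-15-D12. Its intensities were 2.94, 1.73, 2.68 and 1.89 in pregnant heifers 316, 426, 447 and 448, against 3.47 to 12.06 in controls (median 5.31). The gap between groups was narrow: the lowest control, 330, was 1.18 times the highest pregnant heifer, 316. The log2 fold change was -1.36 ± 0.38, or 2.56-fold lower.

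Another clone, 18KO-04-E02, is assigned to TUBA1B and TUBA1A together and so is not among the 7. It had 4.69, 5.98, 4.64 and 5.74 in pregnant heifers 316, 426, 447 and 448, against 7.36 to 18.23 in controls (median 11.025). Its groups did not overlap either, and its log2 fold change was -1.06 ± 0.27.

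**Figure D1:**
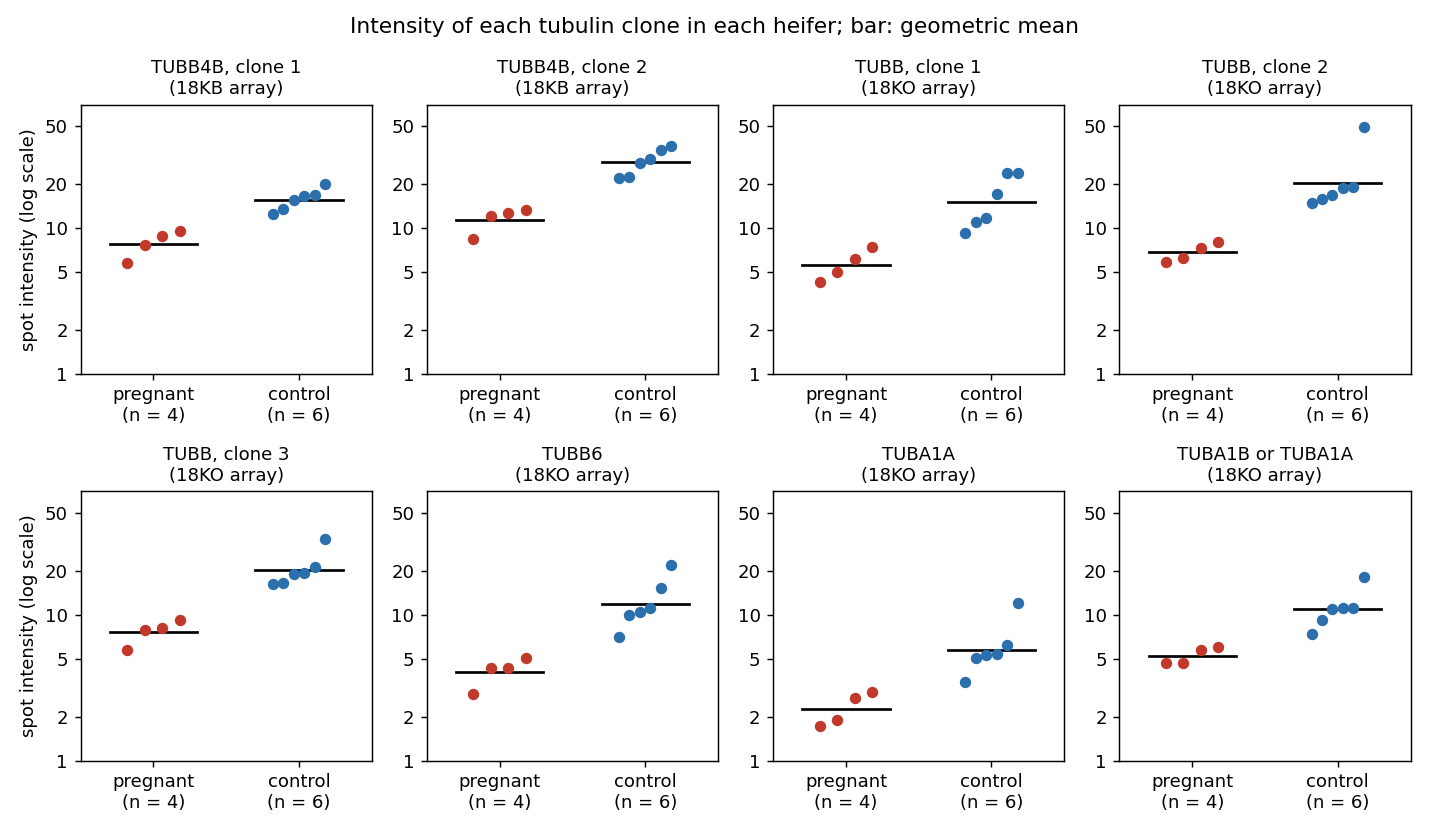
Spot intensity (log axis) of the 7 tubulin clones and of the clone shared by TUBA1B and TUBA1A; each point is a heifer (4 pregnant, 6 control) and each bar the geometric mean of its group. In all 8 panels the pregnant heifers lie below the controls, and control 449 is the topmost point in the 6 panels of the 18KO array.

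All tubulin values lay well inside the measured range. The lowest was 5.74 on the 18KB and 1.73 on the 18KO array, where the 10th percentile of all values was 0.32 and 0.37. By mean log2 level, TUBA1A was brighter than 61.6% of the clones of its array and the second TUBB4B clone brighter than 82.9%.

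Among all clones, 2 of 2 TUBB4B clones were called lower (limma, adjusted p under 0.01 and at least 2-fold), where 0.716% of the clones of the 18KB array were, and both had groups that did not overlap, as did 1.82% of clones. They ranked 14 and 21 from the lowest log2 fold change of 1536. On the 18KO array 4 of 5 tubulin clones were called lower, where 6.32% of clones were. The exception was TUBA1A. This count was not firm. Without pregnant 426 or 448 it was 0, and 54 and 47 clones of the array were called lower, against 97 with all heifers. It was 1 without pregnant 316 or 447 or control 404 or 440, and 1 with a floor at the 10th percentile. All 5 tubulin clones had groups that did not overlap, as did 12.2% of clones, and their ranks from the lowest ran from 103 to 138 of 1536. Averaged per gene, all 4 tubulins were called, where 10.5% of the 86 named genes of the 18KB array were called lower and 80.2% higher, and 59.7% of the 72 named genes of the 18KO array lower and 9.72% higher. Groups did not overlap, with pregnant heifers lower, in 8.14% and 62.5% of named genes. On the 18KO array the 3 tubulins ranked 23, 26 and 35 of 72 from the lowest, near the median of all its named genes (-1.34). Clones carry names chiefly because the study found them to differ in these heifers, so nothing is read from these counts.

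**Figure D2:**
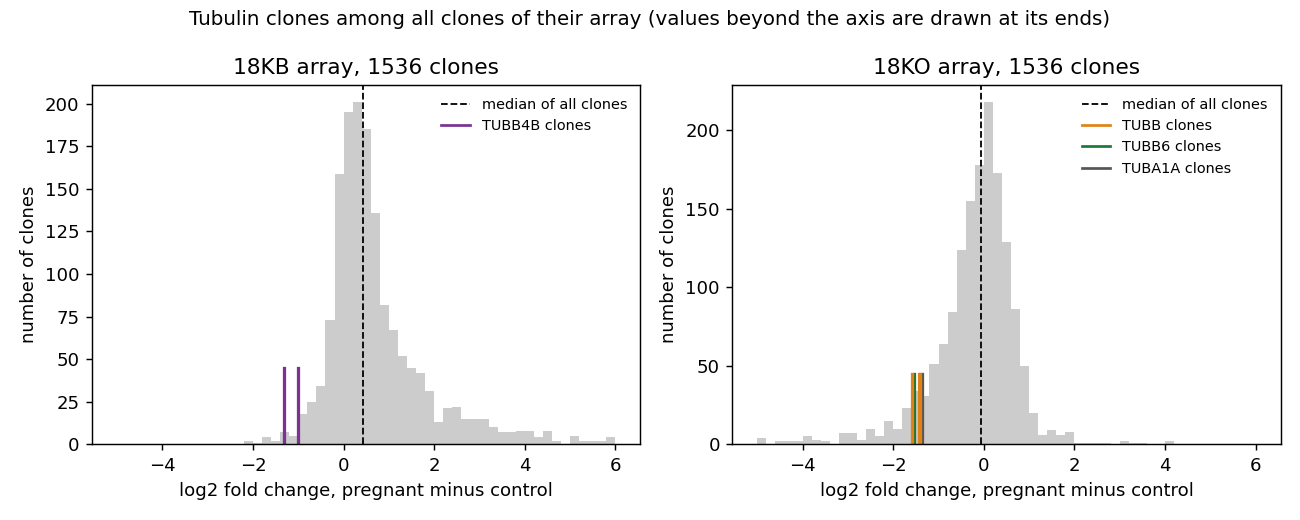
Number of clones (vertical axis) by log2 fold change, pregnant minus control, for all 1536 clones of each array (grey), with the tubulin clones as coloured lines and the median of all clones dashed. TUBB4B clones (-1.32 and -1.003) stand at the low edge of the 18KB array, whose median is 0.44, and the 5 clones of the 18KO array (-1.58 to -1.36) stand in a broader low tail around a median of -0.06.

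The size of these differences depended on the scaling of whole columns. Column medians on the 18KB array were 2.50 to 3.18 in pregnant heifers and 1.39 to 1.90 in controls, a difference of 0.83 on the log2 scale (two-sided exact permutation p = 0.00952, the smallest that the 210 splits can give, adjusted p = 0.019 over both arrays). On the 18KO array they were 1.67 to 2.36 in pregnant heifers and 2.03 to 3.90 in controls (difference -0.33, exact permutation p = 0.105, adjusted p = 0.105, or 0.0317 without control 427). TUBB4B was thus lower in pregnant heifers on an array whose signals were mostly higher in them. The 18KB library was enriched for transcripts of pregnant heifers and the 18KO library for those of controls. Medians that differ through this choice of clones and through scaling cannot be told apart here. These p-values therefore show no fault of scaling, and equal medians or quantile normalization take off both. Divided by the column median, TUBB4B was 2.77 to 3.63 in pregnant heifers and 10.7 to 16.2 in controls, and its log2 fold change became -1.99. TUBB was 2.73 to 3.67 times the column median in pregnant heifers and 4.996 to 9.63 times in controls, with a log2 fold change of -1.14. TUBB6 was 1.22 to 3.05 times in pregnant heifers and 3.49 to 5.65 times in controls (-1.21), and TUBA1A 0.795 to 1.25 times in pregnant heifers and 1.55 to 3.10 times in controls (-1.02). No gene's groups overlapped on this scale. The share of all clones or named genes without overlap was not counted on it, so nothing is read from this. TUBB4B had the smallest difference of the 4 genes as deposited and the largest after this scaling, so values of different arrays have no settled order. Sorted by log2 fold change, the typical (middle) clone of the 18KB array stood at 0.44 as deposited and at -0.39 after division. On the 18KO array it stood at -0.06 and then at 0.27. The division thus turned the sign of the typical clone, downwards on 18KB and upwards on 18KO. The value of -1.99 and the changed order carry this shift, and are not preferred to those as deposited.

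**Figure D3:**
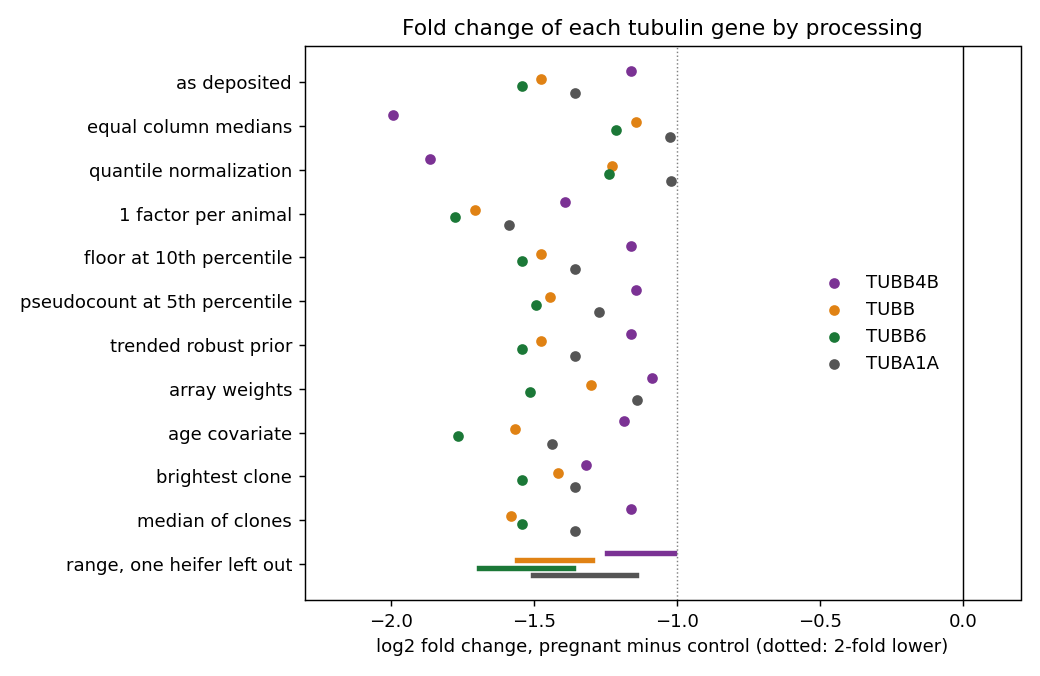
Log2 fold change, pregnant minus control, of each tubulin gene (colours) as deposited and under the other processing choices (rows); lines in the bottom row span the values with 1 heifer left out, and the dotted line marks 2-fold lower. All values lie below 0; TUBB4B moves from -1.16 to -1.99 with equal column medians, while TUBB, TUBB6 and TUBA1A move towards 0.

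The calls of the 3 tubulin genes of the 18KO array depended on which heifers were included, as did calls of its other named genes. Control 449 was the highest control for all 3, at 33.9 for TUBB, 21.92 for TUBB6 and 12.06 for TUBA1A, where the other 5 controls reached 19.5, 15.26 and 6.16. Its column also had the highest median of that array, and divided by this median it was the highest control for TUBA1A alone among the 3. TUBB4B, on the other array, was in the middle of the controls in this heifer as deposited (22.4), and the highest control after division by the column median. Without control 449 the log2 fold changes were -1.30 for TUBB, -1.36 for TUBB6 and -1.14 for TUBA1A, and all 3 genes were still called. With equal column medians as well, a step added after seeing the data, TUBA1A (-0.93) was not called. Without pregnant 316, whose 18KO array was hybridised later, TUBB (-1.51) was the one tubulin of that array still called, and TUBB6 had -1.38 and TUBA1A -1.48. Without pregnant 426, TUBB6 (-1.57) was the only one called, with TUBB at -1.42 and TUBA1A at -1.23. TUBA1A also lost its call without pregnant 448 (-1.27) or control 440 (-1.34). Calls were lost over the whole array. Of its 72 named genes, 43 were called lower with all heifers included. With 316, 426 or 448 dropped, 21, 19 and 15 of the 72 were called lower, and with 440 dropped 30 were. When 316 was dropped, TUBA1A lost its call although its size grew, from -1.36 ± 0.38 to -1.48 ± 0.44 (SE). The lost calls are therefore not read as an effect of single heifers on tubulins in particular. Averaged over its clones, TUBB4B was called whichever heifer was left out (-1.24 to -1.01). Only 1 of its 2 clones was called without pregnant 316 or 448 or control 404, 427 or 449. The same held with array weights or a pseudocount. On its array 75 to 77 of 86 named genes were called in either direction with 1 heifer left out, against 78 with all heifers. Of these, 7 to 10 were called lower, against 9 with all heifers.

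Among the 6 controls, which were not split by pregnancy, the tubulin genes showed no shared variation that held up, in a comparison added after seeing the data. Over 6 pairs of genes Pearson's r ran, as deposited, from 0.06 to 0.75, and the smallest adjusted p was 0.454 (exact permutation over 720 pairings). The highest was that of TUBB6 and TUBA1A, with r = 0.75 (exact permutation p = 0.1, adjusted p = 0.454) and Spearman's rho = 0.89 (exact permutation p = 0.0333, adjusted p = 0.2), and r = 0.42 without the 2 controls farthest from the median, 449 and 427. Dividing by the column median lowered the r over 6 controls to 0.21 (exact permutation p = 0.656, adjusted p = 0.787). Without the 2 controls then farthest from the median, 427 and 404, it was 0.73. Genes of 1 array share their column, and 6 heifers give wide room for error. The correlation of TUBB and TUBB6, 0.59 as deposited (exact permutation p = 0.303, adjusted p = 0.454), turned to -0.06 with this division (exact permutation p = 0.889, adjusted p = 0.889). The pairs across arrays went the other way: TUBB4B and TUBB6 had 0.07 as deposited (exact permutation p = 0.911, adjusted p = 0.986) and 0.76 after division (exact permutation p = 0.0694, adjusted p = 0.417), with 0.71 when the 2 controls farthest from the median, 449 and 434, were left out. TUBB4B and TUBA1A had 0.06 as deposited (exact permutation p = 0.986, adjusted p = 0.986) and 0.56 after division (exact permutation p = 0.219, adjusted p = 0.489), with -0.15 without the same 2 controls. TUBB4B and TUBB changed little, from 0.52 (exact permutation p = 0.2, adjusted p = 0.454) to 0.58 (exact permutation p = 0.244, adjusted p = 0.489). After division this pair had -0.46 without controls 449 and 434.

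Levels of 1 tubulin relative to another were taken within each heifer for 6 pairs of genes. For the 3 pairs within the 18KO array, which column scaling cannot change, the groups overlapped. TUBB minus TUBA1A, a beta against an alpha chain on the same array, was 1.55 ± 0.23 in pregnant heifers (SD, n = 4) and 1.67 ± 0.40 in controls (SD, n = 6) on the log2 scale. TUBB minus TUBB6 was 0.71 ± 0.45 in pregnant heifers and 0.64 ± 0.47 in controls. TUBB6 minus TUBA1A was 0.85 ± 0.67 in pregnant heifers and 1.03 ± 0.41 in controls. The 3 pairs of TUBB4B with a gene of the other array depended on the scaling, as a comparison added after seeing the data showed. As deposited these groups overlapped, and pregnant heifers exceeded controls by 0.31 (TUBB), 0.38 (TUBB6) and 0.20 (TUBA1A) in the mean difference. Divided by the column median, the groups did not overlap in any of the 3 pairs and the sign turned, with pregnant minus control differences of -0.85 (TUBB), -0.78 (TUBB6) and -0.97 (TUBA1A). TUBB4B minus TUBB was then -0.11 to 0.31 in pregnant heifers and 0.43 to 1.24 in controls. The division shifts all 3 pairs of a heifer by the same amount, set by its 2 column medians. The 3 turns of sign are therefore not separate results, and overlap was not counted over other pairs of genes. The turns also carry the opposite shifts of the typical clone that the division brings on each array. All values of pairs are differences of intensity, not of transcript number.

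**Figure D4:**
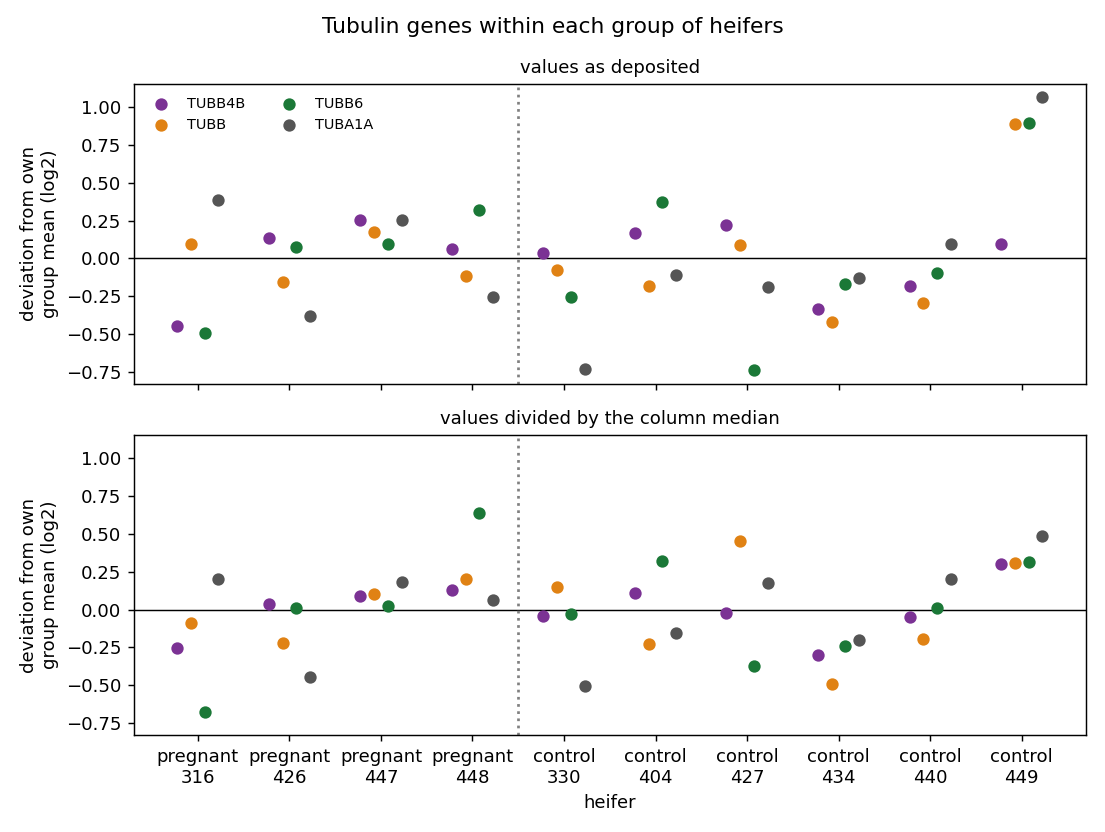
Deviation of each tubulin gene (colours) from the mean of its own group on the log2 scale, for each of the 4 pregnant and 6 control heifers, as deposited (top) and divided by the column median (bottom). Control 449 stands 0.89 to 1.06 above the control mean in the 3 genes of the 18KO array, less so after division, and pregnant 316 is low for TUBB4B and TUBB6 but not for TUBA1A.

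The named genes whose pattern came closest to each tubulin were found by the root-mean-square difference of log2 values over the 10 columns of an array, each gene centred on its own mean. For TUBB4B these were SEC61A1, part of the channel through which new proteins enter the endoplasmic reticulum (0.30), and the collagen VI chains COL6A1 (0.33) and COL6A2 (0.36), where the median of the other 85 genes was 1.54. For TUBB they were RARRES1, a membrane protein induced by retinoids (0.28), the smooth muscle actin ACTA2 (0.29) and the actin cross-linker FLNA (0.30), with a median of 0.57 over 71 genes. For TUBB6 they were the glycosyltransferase A4GALT (0.27), the gastrin-releasing peptide precursor GRP (0.34) and CDCA7L, a nuclear protein (0.36), with a median of 0.67. For TUBA1A they were CHPF, an enzyme of chondroitin synthesis (0.19), RARRES1 (0.23) and the annexin ANXA2 (0.26), with a median of 0.56. The 10 columns include the difference between groups by which the tubulins were chosen, so this measure favours genes that were also lower in pregnant heifers. With pregnant and control columns centred separately, A4GALT stayed the closest gene to TUBB6 (0.25) and CHPF the closest to TUBA1A (0.19). For TUBB, RARRES1 came to place 2, FLNA to place 6 and ACTA2 to place 8. For TUBB4B, SEC61A1 came to place 14 (0.29), COL6A1 to place 18 (0.33) and COL6A2 to place 22 (0.36), where the median was 0.44.

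The wider microtubule system was barely covered by named clones. None of 21 genes of tubulin folding, 15 of tubulin modification, 20 markers of ciliated cells or 22 proliferation genes had a name on either array (0 named in each list). Of 51 genes for microtubule binding and motors, 2 were named, 1 on each array, and they went opposite ways. Each went the way of most named genes of its array, where 80.2% were called higher (18KB) and 59.7% lower (18KO). CKAP4, a membrane protein that ties the endoplasmic reticulum to microtubules, fell on the 18KO array: its geometric mean was 1.06 in pregnant heifers and 4.25 in controls (log2 fold change -2.004 ± 0.47, limma adjusted p = 0.00257). GABARAPL1, a protein of autophagosome membranes that binds tubulin, rose on the 18KB array: its geometric mean was 4.43 in pregnant heifers and 1.56 in controls (1.51 ± 0.27, limma adjusted p = 0.000175). It was not called with equal column medians (0.68) or after quantile normalization (0.73).

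Of the actin cytoskeleton, the other main filament system, 5 genes were named on the 18KO array and 2 on the 18KB array. On the 18KO array their median log2 fold change was -1.41, against -1.34 over all 72 named genes. FLNA (-1.67 ± 0.38, limma adjusted p = 0.00207), the myosin kinase MYLK (-1.58 ± 0.39, adjusted p = 0.00294) and ACTA2 (-1.41 ± 0.36, adjusted p = 0.00303) were called lower. They were 3 of the 5 named, where 59.7% of all named genes of that array were called lower. The cytoplasmic actin ACTB had -1.06 ± 0.35 (limma adjusted p = 0.0105) and ZYX, a protein of focal adhesions, -1.16 ± 0.39 (limma adjusted p = 0.0118), neither called, although both were with 1 factor per animal (-1.29 and -1.40). The 2 genes of the 18KB array went opposite ways. FLNA fell there too (-1.87 ± 0.33, limma adjusted p = 0.000164). WIPF3, which binds actin regulators, rose (limma adjusted p = 0.000146), with 0.65 to 1.70 in pregnant heifers and at most 0.34 in controls, of which the lowest was at the floor of 0.01. Its log2 fold change of 4.31 rests on that floor and was 1.75 with a floor at the 10th percentile.

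In the list of endoplasmic reticulum and secretion genes 3 of 5 were called lower on the 18KO array, where 59.7% of all named genes were. They were CKAP4, the collagen chaperone SERPINH1 (-1.46 ± 0.39, limma adjusted p = 0.00455) and the chaperone HSPA5 (-1.42 ± 0.42, adjusted p = 0.00594). The 2 not called also had log2 fold changes below 0. SEC61A1 fell on the 18KB array (-1.06 ± 0.28, limma adjusted p = 0.00245) but was not called on the 18KO array (-1.02 ± 0.34, limma adjusted p = 0.0103). These 2 calls depended on the setting: with array weights the 18KB value was -0.98 and not called, and with 1 factor per animal the 18KO value was -1.26 and called. All 5 collagen genes named on the 18KB and all 6 on the 18KO array were called lower, with medians of -1.69 and -1.76. Of all named genes of these arrays, 10.5% and 59.7% were called lower. The collagen calls lost under the other scalings, floors, filters, priors, weights or the age covariate were those of COL6A1 on the 18KO array with equal column medians (-0.78), quantile normalization (-0.81), array weights (-0.96) or age as a covariate (-0.99), of COL6A2 on the 18KB array with a pseudocount (-0.998), array weights (-0.96) or age (-0.92), and of COL1A2 on the 18KO array with array weights (-1.19). Among them COL6A3 had -2.44 ± 0.45 (limma adjusted p = 0.000402), COL1A1 -2.28 ± 0.44 (adjusted p = 0.000626), COL4A2 -1.79 ± 0.36 (adjusted p = 0.000685) and COL3A1 -1.73 ± 0.41 (adjusted p = 0.00257) on the 18KO array. None of these lists is independent evidence of its direction, since the study sequenced clones that differed in these same samples.

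**Figure D5:**
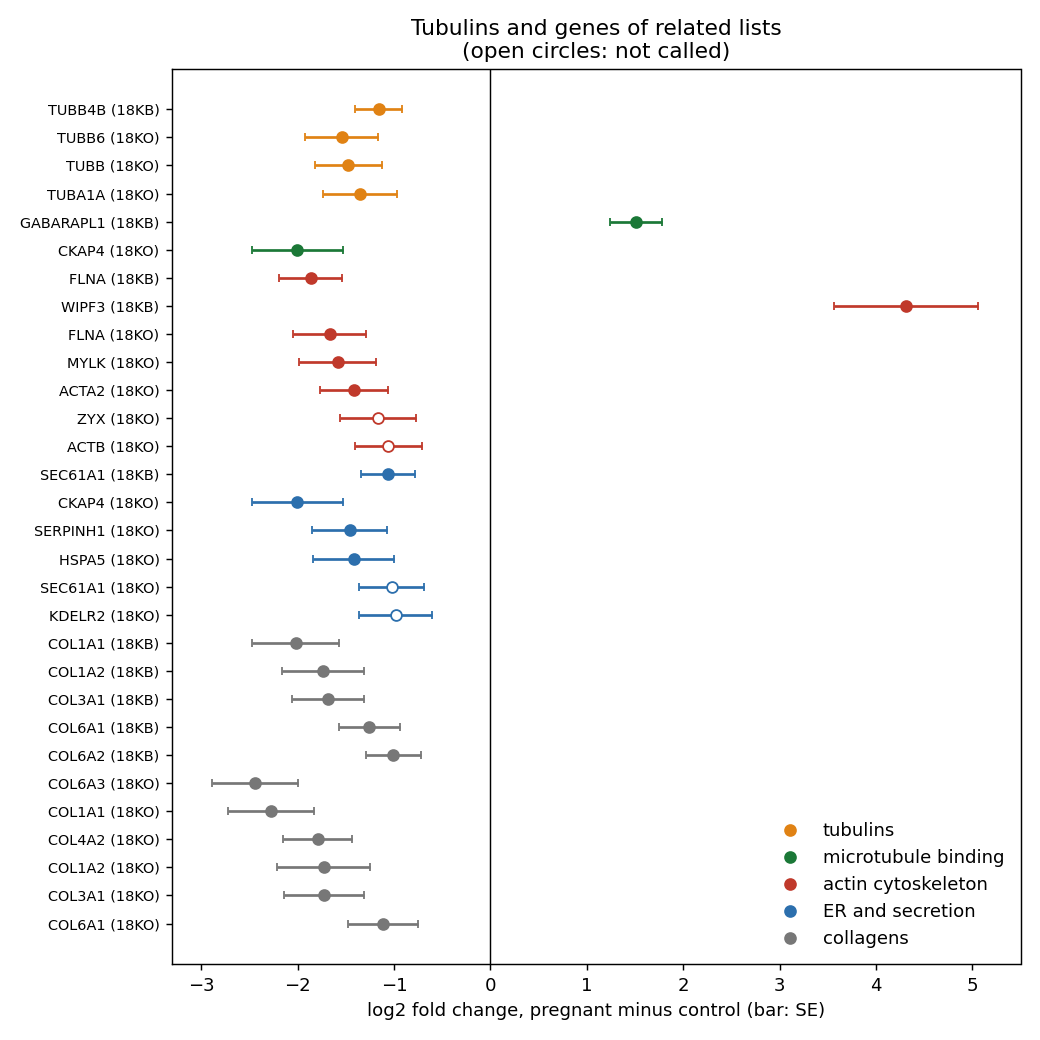
Log2 fold change, pregnant minus control, with its standard error, of the tubulin genes and of all named genes of the lists for microtubule binding, actin, endoplasmic reticulum and collagens, with the array in brackets; open circles were not called. The tubulins (-1.54 to -1.16) lie among actin, endoplasmic reticulum and collagen genes, most of them below 0, and GABARAPL1 and WIPF3 are the only ones above 0.

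Markers of several cell types moved with pregnancy beside the tubulins, and their part in the result was not tested. Of all named genes, 10.5% of the 18KB array were called lower and 80.2% higher. On the 18KO array 59.7% were called lower and 9.72% higher. Of 11 stromal markers 6 were named on the 18KO array, of which 4 collagens fell, NR2F2 rose and FBLN1 was not called; their summed intensity was 69.5 to 275 in pregnant heifers and 328 to 1086 in controls. On the 18KB array 3 of 11 stromal markers, all collagens, were named and fell, with sums of 107 to 436 in pregnant heifers and 622 to 1415 in controls. Of 8 smooth muscle markers 2 were named, ACTA2 and MYLK, and both fell (sums of 4.81 to 9.33 in pregnant heifers and 14.7 to 33.3 in controls). Of 11 epithelial markers 2 were named, with log2 fold changes of opposite sign. CLDN4 rose (1.96 ± 0.58, limma adjusted p = 0.00601), though it was not called with age as a covariate (1.42, limma adjusted p = 0.0219). CLDN10 had -1.93 ± 0.74 (limma adjusted p = 0.0223) with overlapping groups and was not called. Sums of the 2 markers were 19.6 to 33.4 in pregnant heifers and overlapped the 7.16 to 20.8 of controls. Trophoblast markers, 3 of 9 named on the 18KB array, rose, with sums of 1.44 to 41.7 in pregnant heifers and 0.955 to 1.79 in controls, but none of the 3 was called with equal column medians or after quantile normalization, and TKDP4 lost its call under most other settings too. No marker of endothelium, immune cells or red blood cells was named (0 of each list).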

How the data were processed

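The members and gene lists were chosen with earlier results of these data known. Deposited are linear spot intensities; the authors' background correction and scaling are not given in the sources used, except that, per the labels, the 18KO values of pregnant 316 came from a later hybridisation and were placed by their ratios to 2 other samples. Values under 0.01 were set to 0.01 before taking log2. Clones were named through the array's probe-to-gene table, which can be old, and clones with 1 symbol were averaged per gene. Each array was fitted by itself, 4 pregnant against 6 control columns, with lmFit and eBayes of limma 3.58.1 (R 4.3.3) and Benjamini-Hochberg adjustment over all its clones or all its named genes. The fit of clones was tested on simulated data with independent noise and no shifts of whole columns. That test therefore does not cover the effect of column scaling or the fit of named genes. A clone or gene was called where the adjusted p was below 0.01 and the groups differed at least 2-fold. Values of single columns were compared by exact permutation (scipy 1.17.1). Animal numbers pair both arrays of a heifer, since they name the same animal.

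The genes named are the 4 tubulins, the 3 genes with the most similar pattern to each, and up to 4 genes with the smallest p from each list. Alternatives were other column scalings, floors, filters, priors, weights and thresholds, age as a covariate, other summaries of clones, and leaving out each heifer. Columns of per-sample values not used numbered 0. No sequence of the clones was used here. The number of animals limits the precision.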

Additional observations from a re-analysis of the deposited data

Results flagged for a closer look

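Across 24 sets of values tested (each tubulin clone and gene and each array's column median, in pregnant and in control heifers), 1 held a heifer far from the others of its group, and chance alone flags about 1 in 20. In control 449 the TUBB clone 18KO-11-A05 reached 49.45, while the remaining 5 controls lay between 14.76 and 19.21. The gap to the nearest control took up 0.782 of the whole range on the log2 scale, above the critical value of 0.625 for 6 samples. The 18KO column of this heifer also had the highest median of that array (3.90).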

How the results depend on the processing

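All 4 tubulin genes lay below 0 under every alternative that was run (TUBB4B from -1.99 to -1.01, TUBB from -1.71 to -1.08, TUBB6 from -1.77 to -1.15 and TUBA1A from -1.59 to -0.93, log2). Sizes moved by more than the spread between heifers for TUBB4B with equal column medians (-1.99) and quantile normalization (-1.86), and, without control 449 and with equal medians, a step chosen after seeing the data, for TUBB4B (-1.93) and TUBB (-1.08); under that step TUBA1A (-0.93) was not called. Leaving out 1 heifer gave TUBB4B -1.24 to -1.01, TUBB -1.56 to -1.30, TUBB6 -1.69 to -1.36 and TUBA1A -1.502 to -1.14. With equal medians 51 named genes of the 18KB array were called, against 78 as deposited. On the 18KO array 115 clones were called as deposited, 175 with equal medians, 239 with 1 factor per animal, 69 with a floor at the 10th percentile and 224 at an adjusted p of 0.05. Called clones were lower in pregnant heifers in 3.37% on the 18KB array as deposited, in 53.4% with equal medians and in 43.8% after quantile normalization. On the 18KO array the shares were 84.3%, 53.1% and 66.2%. Without 1 heifer 20 to 51 named genes, 5 to 14 list genes and 58 to 114 clones of the 18KO array were called, and the difference in its column median ranged from -0.40 to -0.22. The correlation of TUBB and TUBB6 over controls turned to -0.060 with equal medians, and the pregnant minus control difference in TUBB4B relative to TUBB, TUBB6 and TUBA1A turned to -0.85, -0.78 and -0.97. Equal medians take the difference in column median, 0.83 on the 18KB and -0.33 on the 18KO array, off every log2 fold change there. The TUBB4B size with equal medians and the turned differences of TUBB4B follow from that by arithmetic. With equal medians the typical clone stood at -0.39 on the 18KB and at 0.27 on the 18KO array. Each is opposite in sign to its value as deposited. Why the columns differ, and the cause of the other changes, were not tested. No paired analysis was possible because pregnant and control heifers share no animal number and no tubulin gene has named clones on both arrays; the interaction with the array was therefore not run.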
